A study of Mus musculus with 6 samples.

Results

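The transcripts described here encode 10 proteins of the neutrophil: the cytosolic alarmins S100a8 and S100a9, the specific granule proteins Ngp, Camp, Ltf and Lcn2, the gelatinase Mmp9, and the primary granule proteins Mpo, Elane and Prtn3. They were chosen by gene symbol, though with earlier results of these data known. All probe sets annotated to them were taken: 11 of 22626, since Mmp9 has 2 and the other genes 1 each. The annotation names 12393 genes in all. The material was RNA of mouse multiple myeloma cells from bone marrow, labelled as malignant plasma cells. The control group (3 arrays) spent 12 h in medium that held neither serum nor IGF-1. The IGF-1 group (3 arrays) spent 12 h in serum-free medium with insulin-like growth factor 1 at 100 ng/ml. The sources used here give neither the mouse strain nor the myeloma line or model, nor how cells were isolated. Since separate cultures or animals are not stated for the replicates, p-values here cover only sample-to-sample spread, which may be technical.

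Neutrophils make their granules in sequence during maturation in the marrow. Primary granules, filled with myeloperoxidase and serine proteases, come first, specific granules with lactoferrin and cathelicidin follow, and gelatinase granules come last. S100a8 and S100a9 form calprotectin, a cytosolic calcium-binding complex that acts as an alarm signal through Toll-like receptor 4 once released. Neutrophils and their precursors are abundant in bone marrow, the tissue in which myeloma grows.

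All 10 genes gave clear signal in all 6 arrays, at levels from 162 (Prtn3, IGF-1 1) to 8178 (S100a9, control 2). As a guide to background, 27 control probe sets for bacterial transcripts other than the hybridization controls averaged at most 21.1. A signal is the MAS5 summary of a probe set on a linear scale, and only probe sets with a mean over 53.6 were tested. With IGF-1, Ltf fell 1.52-fold, and Mmp9 fell by 0.58 on the log2 scale on 1 of its 2 probe sets. In bulk RNA, fewer cells of a type and less RNA per cell cannot be told apart, nor can neutrophil transcripts made by myeloma cells be told apart from those of other cells. The other 9 probe sets did not pass an adjusted p of 0.05 (limma with Benjamini-Hochberg adjustment over 11313 probe sets). Thus 2 of 11 probe sets were called, both lower, where 15.1% of all tested probe sets were called in either direction, 8.28% were called lower and 6.82% higher. Signals of the groups did not overlap for 4 of the 11, all lower with IGF-1. Of all tested probe sets, 34.8% did not overlap in either direction, and 18.7% had every IGF-1 array below every control array. By sign, 10 of 11 were lower on the deposited scale, but 6 of 11 when arrays were scaled to 9 hybridization control probe sets and 5 of 11 when scaled to 18 of them. Over all tested probe sets, 51.6% were lower by sign on the deposited scale. The median log2 difference of the 11 was -0.27, against -0.01 over all tested probe sets. The scaling to 9 and to 18 control probe sets moved the median of all probe sets to 0.21 and 0.25. That of the 11 moved to -0.04 and 0.01. The 11 thus lay -0.24 from the median of all in both, against -0.26 on the deposited scale. A common factor per array shifts all probe sets nearly alike on the log2 scale, so this distance could hardly change and is no check. With these scalings 12.4% and 8.21% of all calls were lower, against 54.8% on the deposited scale.

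**Figure D1:**
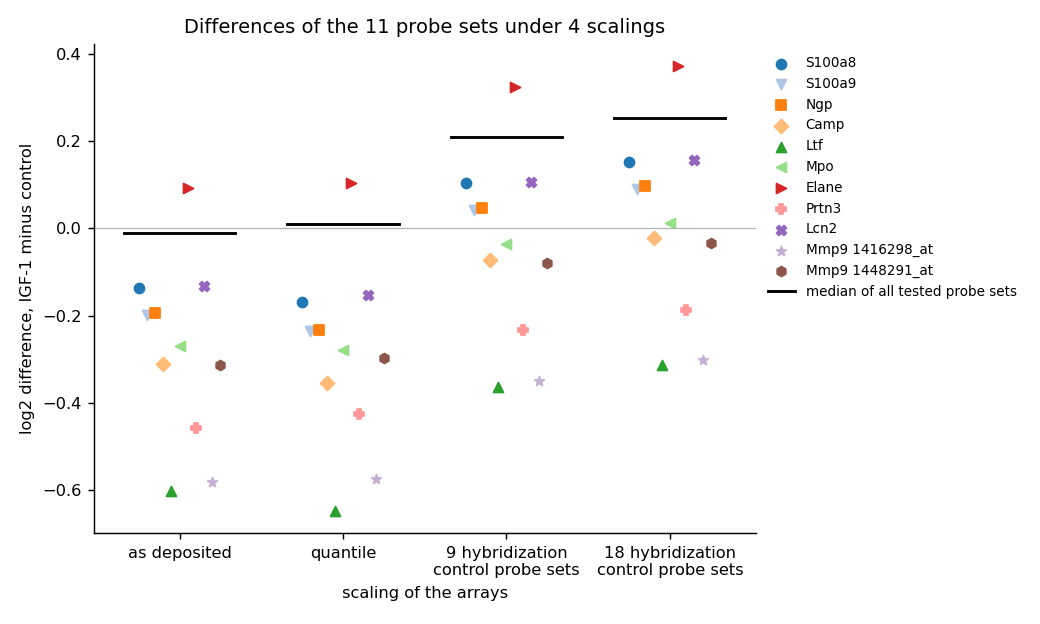
Log2 difference (IGF-1 minus control) of each of the 11 probe sets with the deposited scaling, with quantile normalization and with arrays scaled to 9 or 18 hybridization control probe sets; black bars are the median of all tested probe sets. The bars rise from -0.01 to 0.21 and 0.25 with the control probe sets, and 10 of 11 probe sets lie below the bar in each of the 4 columns. In the columns of the control probe sets, a common factor per array moves points and bar nearly alike.

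**Figure D2:**
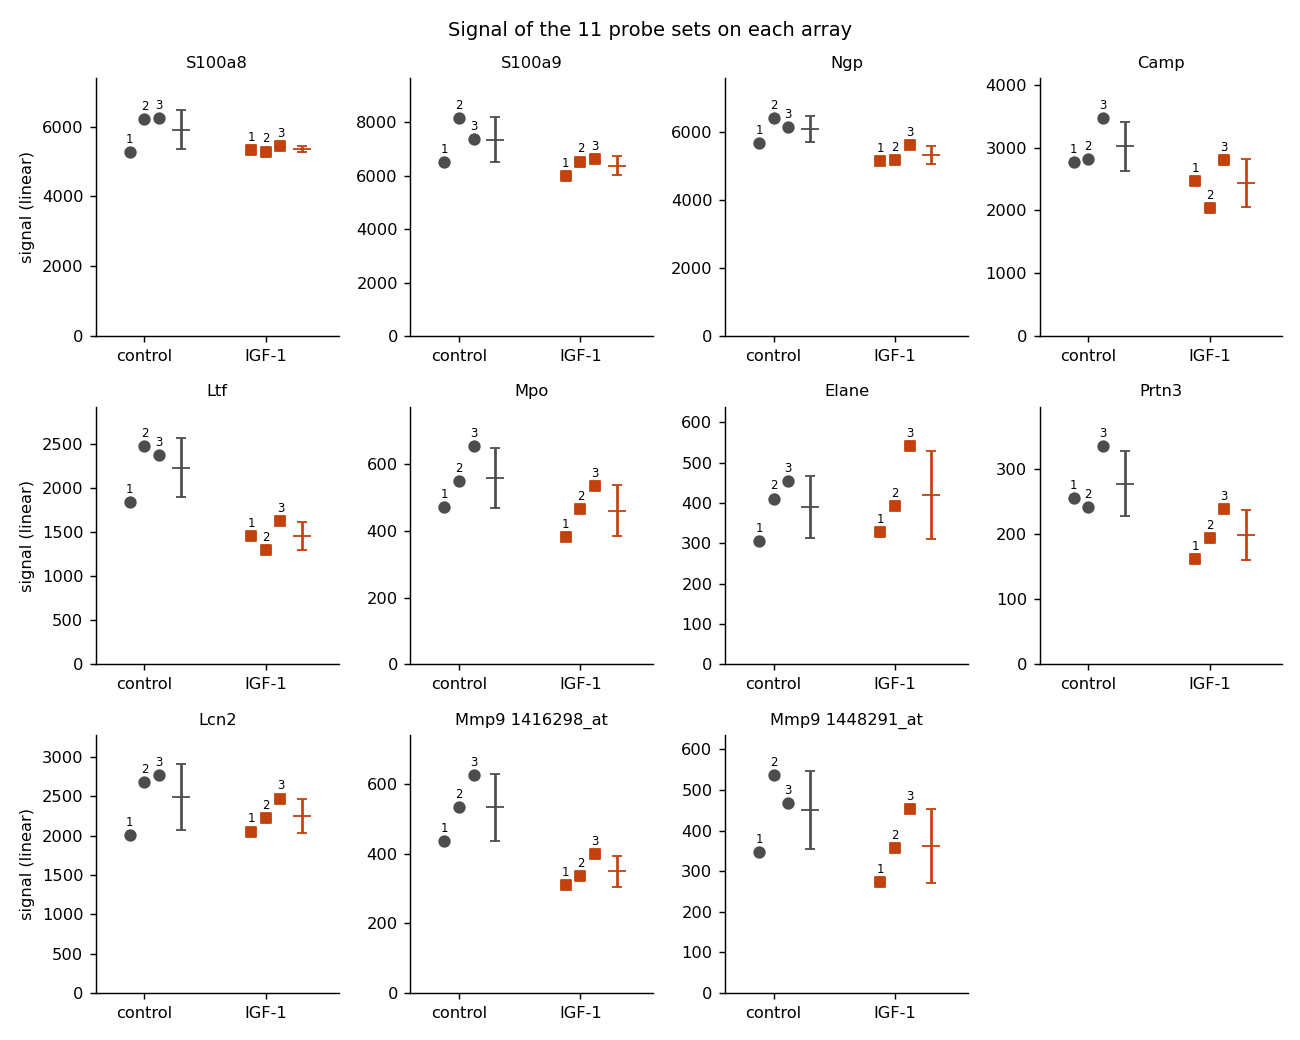
Signal (linear, axes from 0) of each of the 11 probe sets on each array, with array numbers beside the points; circles are control arrays, squares IGF-1 arrays, and the bars give mean ± SD of 3 arrays. The groups do not overlap for Ltf, Ngp, Prtn3 and the Mmp9 probe set 1416298_at, and they overlap for the other 7 probe sets.

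The alarmins were the brightest members beside Ngp. S100a9 gave 6513, 8178 and 7384 in control arrays 1 to 3 and 5979, 6537 and 6642 in IGF-1 arrays 1 to 3. Only IGF-1 1 lay below every control array, and the groups overlapped. The log2 difference (IGF-1 minus control, on the log2(signal + 15.6) scale used for all differences) was -0.20 ± 0.10 (SE, adjusted p = 0.21), with a 95% interval from -0.42 to 0.02. S100a8, its partner in calprotectin, gave 5267, 6206 and 6253 in the control arrays and 5326, 5284 and 5453 in the IGF-1 arrays. All IGF-1 values lay between control 1 and control 2. The difference was -0.14 ± 0.09 (adjusted p = 0.35, interval -0.34 to 0.06). Both differences were positive when arrays were scaled to 9 or 18 hybridization control probe sets (0.04 and 0.09 for S100a9, 0.10 and 0.15 for S100a8). With 1 array left out, S100a9 ran from -0.12 (without control 2) to -0.28 (without control 1) and S100a8 from -0.09 (without control 3) to -0.22 (without control 1), and neither passed. The brightest probe set of any array reached between 8393 and 10029, so S100a9 lay close to the upper end, and whether signals are compressed there was not tested.

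Ranks within the array, which no common scaling factor can move, gave a sharper separation for the brightest members. S100a9 ranked 28, 22 and 17 of 22626 in the control arrays and 73, 59 and 50 in the IGF-1 arrays. S100a8 ranked 84, 91 and 56 against 111, 117 and 106. Neither gene's ranks overlapped between the groups, though their signals did. Ranks did not overlap for 6 of the 11 probe sets, all with IGF-1 arrays at the dimmer ranks, against 16.9% of all tested probe sets with ranks dimmer in every IGF-1 array and 34.8% with ranks apart in either direction. A rank orders probe sets by signal and does not compare the amounts of different transcripts.

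**Figure D3:**
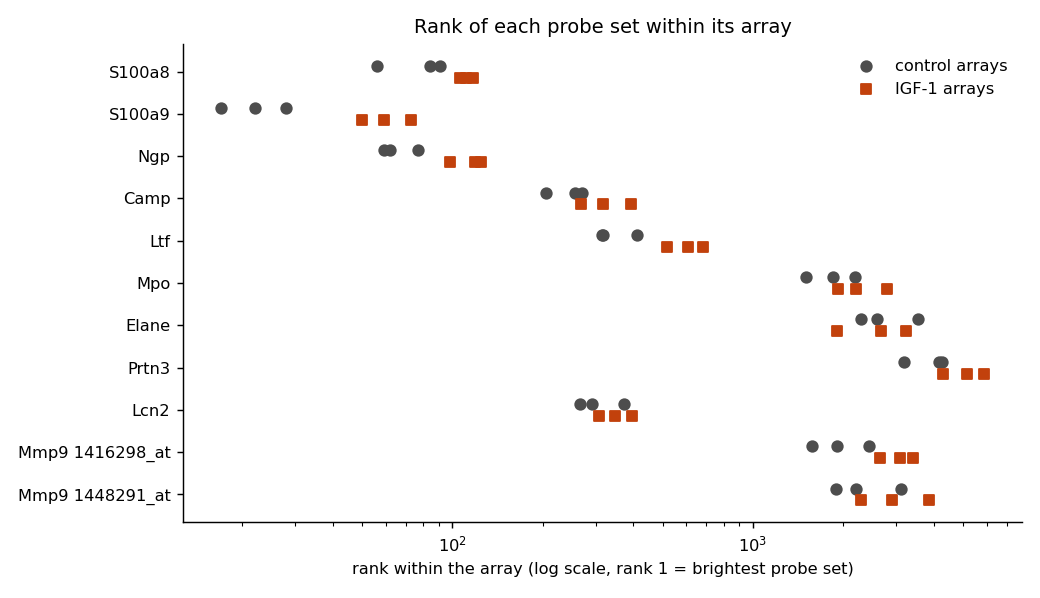
Rank of each probe set within its array on a log axis, where rank 1 is the brightest of 22626; circles are the 3 control arrays and squares the 3 IGF-1 arrays. Ranks are apart for S100a8, S100a9, Ngp, Ltf, Prtn3 and Mmp9 1416298_at, and they overlap for the other 5.

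Among specific granule transcripts, Ltf, which encodes the iron-binding lactoferrin, had the largest difference. Its signals were 1847, 2475 and 2375 in the control arrays and 1454, 1302 and 1622 in the IGF-1 arrays. Every IGF-1 array lay below every control array. The mean went from 2232 ± 338 to 1460 ± 160 (SD, n = 3), a log2 difference of -0.60 ± 0.13 (adjusted p = 0.012 by limma). The call was lost without IGF-1 2 (adjusted p = 0.052) and under scaling to 9 or 18 hybridization control probe sets, where the difference was -0.36 (adjusted p = 0.060) and -0.31 (adjusted p = 0.087).

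The other specific granule members did not pass. Ngp, neutrophilic granule protein, a relative of the cathelicidins, gave 5681, 6431 and 6154 in control arrays against 5154, 5187 and 5623. All 3 IGF-1 arrays lay below the lowest control array, yet the difference was small, at -0.19 ± 0.08 (adjusted p = 0.15), and it passed with quantile normalization (adjusted p = 0.025). S100a9 also passed there (adjusted p = 0.019). Camp, the precursor of the antimicrobial peptide CRAMP, gave 2767, 2817 and 3476 against 2465, 2043 and 2806, with IGF-1 3 inside the control range. Its difference was -0.31 ± 0.13 (adjusted p = 0.13, from -0.19 without IGF-1 2 to -0.42 without IGF-1 3). Lcn2, which withholds iron from bacteria by binding siderophores, gave 2004, 2678 and 2775 against 2052, 2224 and 2471. All 3 IGF-1 values of Lcn2 lay inside the control range, with a difference of -0.13 ± 0.13 (adjusted p = 0.53, interval -0.42 to 0.15, and from -0.05 without control 3 to -0.28 without control 1).

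Mmp9, the gelatinase of the last granules to form, was measured by 2 probe sets that gave different calls. Probe set 1416298_at gave 436, 535 and 627 in control arrays and 311, 336 and 399 in IGF-1 arrays, with no overlap, and fell by 0.58 ± 0.14 on the log2 scale (adjusted p = 0.021). Probe set 1448291_at gave 346, 538 and 468 against 273, 358 and 454, where the groups overlapped (-0.31 ± 0.19, adjusted p = 0.30, from -0.13 without IGF-1 1 to -0.48 without IGF-1 3). The first call ended when control 2, control 3, IGF-1 1 or IGF-1 2 was left out (adjusted p up to 0.071), without the signal filter (adjusted p = 0.066), with the mean of both probe sets (-0.45, adjusted p = 0.081) and with scaling to 9 or 18 hybridization control probe sets (-0.35, adjusted p = 0.14, and -0.30, adjusted p = 0.18).

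The 3 primary granule members did not pass either, and they differed in sign. Mpo, which makes hypochlorous acid, gave 473, 549 and 654 in the control arrays and 381, 467 and 536 in the IGF-1 arrays. IGF-1 3 lay inside the control range, and the difference was -0.27 ± 0.15 (adjusted p = 0.24, from -0.14 without IGF-1 1 to -0.38 without IGF-1 3). Prtn3, the serine protease proteinase 3, gave 256, 242 and 335 against 162, 194 and 239, without overlap (-0.46 ± 0.16, adjusted p = 0.076, and 0.046 without IGF-1 3). Elane, neutrophil elastase, gave 305, 411 and 453 against 327, 392 and 540. It was the one member with a positive difference (0.09 ± 0.18, adjusted p = 0.78), and its groups overlapped widely. Without control 1 or without IGF-1 3 the Elane difference was negative (-0.07 and -0.10).

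Elane and Prtn3 are next to each other in the genome, as are S100a8 and S100a9, so the members include 2 pairs of neighbouring genes. The ratio of the Elane signal to the Prtn3 signal, taken within each array, was 1.19, 1.69 and 1.35 in control arrays and 2.02, 2.02 and 2.26 in IGF-1 arrays. The groups did not overlap, and the exact permutation p was 0.1, the smallest that 3 against 3 arrays can give. This pair was picked after its values were seen. Over all 55 pairs of member probe sets, the ratio did not overlap between groups in 15, or 27.3%, against 34.4% of all pairs of tested probe sets. Of those 15 pairs, 6 held Ltf and 6 held Mmp9 1416298_at.

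RefSeq (GRCm38.p6) gave promoter sequences for 9 of the 10 genes, none for Mmp9. The 250 bases before the start are shown for Ltf, the single-probe-set gene that fell, and for both neighbouring pairs, so that the pairs can be set side by side. Ltf lies at chr9:111019042-111019291 on the plus strand, Prtn3 at chr10:79879417-79879666 on the plus strand, Elane at chr10:79886062-79886311 on the plus strand, S100a8 at chr3:90668821-90669070 on the plus strand and S100a9 at chr3:90695722-90695971 on the minus strand. Each is written 5′ to 3′ along the gene's own strand. Capitals mark matches, on either strand, to GAGGAA (the core bound by PU.1 and other ETS factors), to TTGCNNAA (C/EBP) or to TATAAA (the TATA box).
Ltf: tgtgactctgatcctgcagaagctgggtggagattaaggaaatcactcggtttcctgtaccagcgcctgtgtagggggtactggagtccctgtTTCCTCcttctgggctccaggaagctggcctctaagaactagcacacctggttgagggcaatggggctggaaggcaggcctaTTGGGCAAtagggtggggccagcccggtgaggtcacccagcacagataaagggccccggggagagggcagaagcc
Prtn3: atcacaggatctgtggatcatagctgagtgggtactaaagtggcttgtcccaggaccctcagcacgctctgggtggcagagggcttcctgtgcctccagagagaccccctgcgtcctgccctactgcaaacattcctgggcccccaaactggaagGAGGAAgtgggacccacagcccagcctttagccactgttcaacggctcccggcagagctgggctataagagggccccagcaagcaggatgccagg
Elane: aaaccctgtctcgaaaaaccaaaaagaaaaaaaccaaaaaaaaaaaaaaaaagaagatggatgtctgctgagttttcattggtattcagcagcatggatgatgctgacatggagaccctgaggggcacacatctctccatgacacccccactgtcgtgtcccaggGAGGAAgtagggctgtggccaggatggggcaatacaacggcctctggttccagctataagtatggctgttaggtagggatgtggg
S100a8: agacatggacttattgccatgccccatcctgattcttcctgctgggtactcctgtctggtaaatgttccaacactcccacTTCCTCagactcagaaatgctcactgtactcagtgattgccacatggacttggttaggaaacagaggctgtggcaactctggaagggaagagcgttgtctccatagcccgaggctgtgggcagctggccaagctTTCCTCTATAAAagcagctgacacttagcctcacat
S100a9: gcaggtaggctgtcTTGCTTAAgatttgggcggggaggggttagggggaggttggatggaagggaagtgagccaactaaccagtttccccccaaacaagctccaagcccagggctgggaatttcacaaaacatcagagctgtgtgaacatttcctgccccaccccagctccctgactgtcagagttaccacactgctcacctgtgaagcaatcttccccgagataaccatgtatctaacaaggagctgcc
GAGGAA was found in 6 of the 9 windows (Ltf, Lcn2, S100a8, Prtn3, Elane and Mpo), against 23.3% of all 32851 windows of this length. Prtn3 and Elane carry it at 95 and 85 bases before the start, both on the gene's strand. TTGCNNAA was found in 4 of the 9 (Ltf, Lcn2, S100a9 and Ngp), against 9.56% of all windows, and TATAAA in 1, S100a8, against 12.4%. In S100a8 the TATA match adjoins a GAGGAA match on the opposite strand without overlap, so they appear as 1 run of capitals. These are matches of letters and no measure of binding.

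Within each group the members shared an order of arrays. Among the control arrays, control 1 was the lowest for 10 of 11 probe sets, the exception being Prtn3. Among the IGF-1 arrays, IGF-1 3 was the highest for all 11, against 31.6% and 30.6% of all tested probe sets. Both held for 10 of 11 probe sets, against 11.9% of all tested probe sets. The mean deviation of the 10 genes from their own mean over the 6 arrays was -0.06, 0.18 and 0.30 (log2) in control arrays 1 to 3 and -0.26, -0.19 and 0.03 in IGF-1 arrays 1 to 3. IGF-1 3 thus lay above control 1, and the 2 groups overlapped on this measure.

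**Figure D4:**
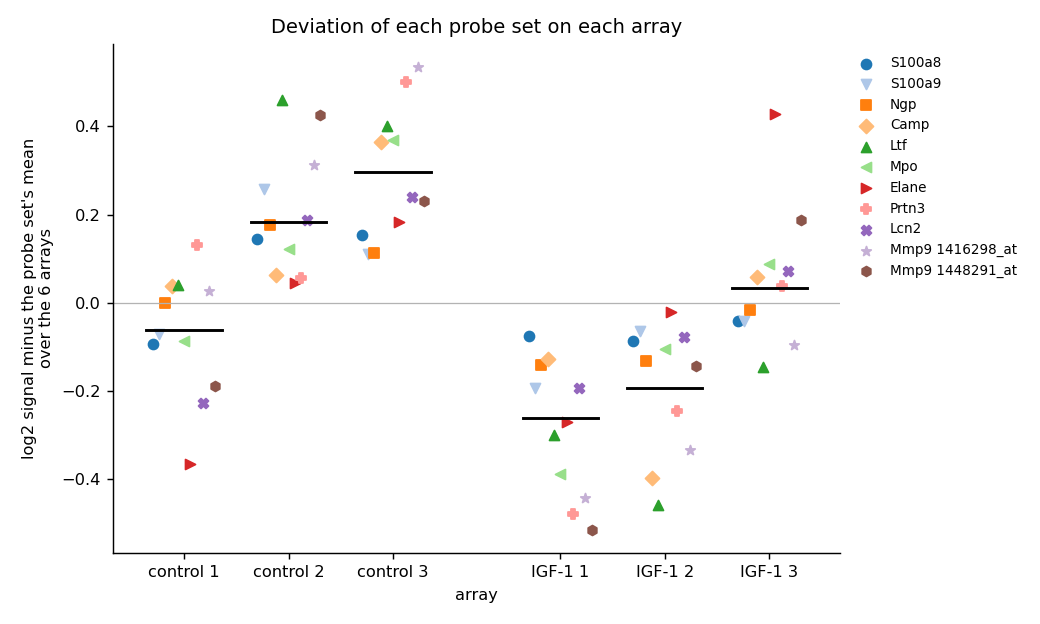
Deviation of each of the 11 probe sets on each array from its own mean over the 6 arrays (log2 signal); black bars are the mean of the 10 genes. Control 1 is the lowest control array for 10 probe sets and IGF-1 3 the highest IGF-1 array for all 11, and the bars run from -0.26 in IGF-1 1 to 0.30 in control 3.

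The same array order was counted in other lists. Control 1 was lowest and IGF-1 3 highest for 28 of 38 tested genes of the granule, cytosol and surface lists without the members. This held for 9 of 10 tested macrophage and monocyte markers and 0 of 9 plasma cell markers, against 11.9% of all tested probe sets. It held for 4 of 6 other S100 genes, 4 of 6 inhibitors, 3 of 9 transcription factors and 2 of 9 receptors. Of the remaining lists, it held for 3 of 4 erythroid and 1 of 5 megakaryocyte markers. The counts were 1 of 4 for eosinophils, basophils and mast cells, 0 of 4 for stroma, 0 of 1 for B cells and 0 of 1 for T and NK cells.

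The members' profile over the 6 arrays was closest to those of Vsir, Tlr2, Hp, Egln3 and Arhgdib, with Pearson r from 0.993 to 0.995 against the mean of the 10 genes. The arrays share groups and scaling, so r is given as a description only. Hp, haptoglobin, a protein of specific granules, went from 523 ± 162 to 328 ± 96.5 (-0.64 ± 0.23, adjusted p = 0.086). Tlr2, a receptor for bacterial lipoproteins, went from 103 ± 33.1 to 63.6 ± 17.5 (-0.56 ± 0.23, adjusted p = 0.12). None of the 5 passed the threshold (limma, lowest adjusted p 0.075). Of the members themselves, Mmp9 1416298_at followed that mean most closely (r = 0.97) and Elane least (r = 0.55). Both are part of that mean, so these r are not independent of it.

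Other genes of the neutrophil lists were called lower in larger numbers. Of the lists of primary granule, specific and gelatinase granule, and cytosol and surface genes, leaving out the 10 members, 38 genes were tested: 20 fell, 2 rose and 16 did not pass, with a median log2 difference of -0.55. Over all 6895 genes tested, 8.05% fell and 7.05% rose. Of 10 tested macrophage and monocyte markers, 5 fell and 1 rose, with a median of -0.69, so falls were not limited to the neutrophil lists. How well the lists separate these cell types was not tested, and Lyz2 stands in both. When arrays were scaled to 9 or 18 hybridization control probe sets, 10 and 7 of the 38 fell. With 1 array left out, 7 to 25 fell. The calls of 7 of the 20 were kept without each of the 6 arrays in turn: Serpinb1a, Csf3r, Cxcr2, Cybb, Wfdc21, Fcgr3 and Chil1. The other 13 all lost the call without control 2, 12 of them also without control 3 or another array, with adjusted p up to 0.15. Whether the members differ from these genes as a class was not tested.

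Of the primary granule list 7 other genes were tested, of which 3 fell, 1 rose and 3 did not pass. Among the 3 falls is that of Serpinb1a, an inhibitor of granule proteases, which is counted again with the inhibitors below. Ctsg, cathepsin G, a protease stored with Elane and Prtn3, fell from 221 ± 34.7 to 146 ± 28.9 (-0.55 ± 0.16, adjusted p = 0.041). Srgn, the proteoglycan that packs granule proteins, fell by 0.45 ± 0.12. Gusb, a lysosomal glucuronidase made by most cells, rose by 0.42 ± 0.08 (adjusted p = 0.0095) and stayed called without each array. Lyz2, lysozyme of neutrophils and macrophages and the brightest of the list, did not pass (-0.34 ± 0.16, adjusted p = 0.18).

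Of 10 other specific and gelatinase granule genes tested, 5 fell and 5 did not pass. Chil1, a chitinase-like protein, fell from 186 ± 15.9 to 108 ± 5.84 (-0.71 ± 0.11, adjusted p = 0.0034). Cybb, the catalytic subunit of the NADPH oxidase, fell by 0.73 ± 0.12, while Cyba, its partner subunit, did not pass (0.14 ± 0.13, adjusted p = 0.50). Mmp8, a collagenase, fell by 0.72 ± 0.17, Cd177, a neutrophil surface glycoprotein, by 0.57 ± 0.14 and Chil3, another chitinase-like protein, by 0.36 ± 0.10. B2m, present in nearly all cells, was the brightest of the list and did not pass (0.04 ± 0.08, adjusted p = 0.77).

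Of 21 neutrophil cytosol and surface genes tested, 12 fell, 1 rose and 8 did not pass. Csf3r, which binds the growth factor G-CSF, went down from 481 ± 68.2 to 300.2 ± 49.6 (-0.66 ± 0.14, adjusted p = 0.012). Cxcr2, a receptor for neutrophil-attracting chemokines, fell from 144 ± 17.4 to 70.1 ± 24.5 (-0.93 ± 0.19, adjusted p = 0.0098). Fcgr3, a receptor for the constant part of antibodies, fell 2.40-fold and Wfdc21 1.99-fold. Fpr2, a formyl peptide receptor, fell by 0.79, Padi4, which citrullinates histones, by 0.73, and Itgam, the integrin subunit CD11b, by 0.54. The remaining falls were those of Clec4e (-0.72), G0s2 (-0.76), Arg1 (-0.64), Anxa3 (-0.47) and Anxa1 (-0.51), the brightest of the list. The one rise was that of Pglyrp1, a peptidoglycan-binding granule protein (0.51 ± 0.15, adjusted p = 0.046), a call kept only when IGF-1 1 was the array left out (adjusted p up to 0.16).

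**Figure D5:**
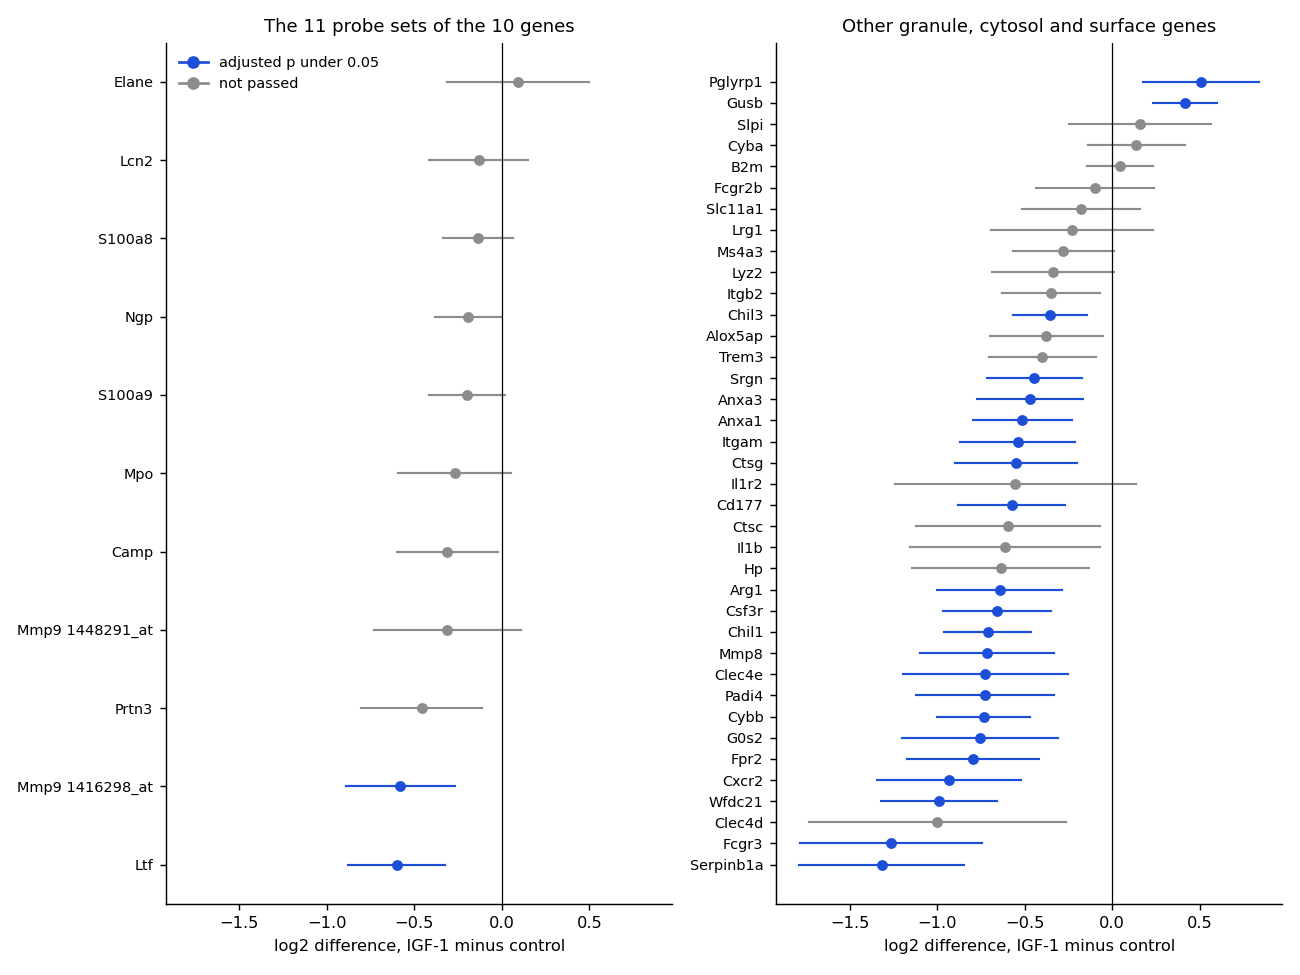
Log2 difference (IGF-1 minus control) with its 95% interval for the 11 probe sets (left) and for 38 other granule, cytosol and surface genes (right); blue marks an adjusted p under 0.05 by limma. Left, Ltf and Mmp9 1416298_at pass; right, 20 genes pass below 0 and Gusb and Pglyrp1 pass above it.

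S100a8 and S100a9 belong to a family of small calcium-binding proteins. Of 6 other S100 genes tested, 1 fell and 5 did not pass. S100a4, found in many motile cells, fell from 334 ± 98.1 to 174 ± 48.9 (-0.87 ± 0.22, adjusted p = 0.028). Its groups overlapped all the same, and leaving out control 2, control 3, IGF-1 1 or IGF-1 2 ended the call, with adjusted p up to 0.10. S100a6, the brightest of these, did not pass (-0.42 ± 0.17, adjusted p = 0.12).

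Receptors for the alarmins and for bacterial peptides gave 3 falls and 1 rise among 9 tested genes. Cd14, a co-receptor of Toll-like receptor 4, fell from 294 ± 77.0 to 162 ± 55.2 (-0.82 ± 0.24, adjusted p = 0.044) but kept its call only when control 1 or IGF-1 3 was the array left out (adjusted p otherwise up to 0.13). Tlr4 itself did not pass (-0.46 ± 0.14, adjusted p = 0.051). Cd33, a sialic acid-binding receptor, fell by 0.60 ± 0.13, a call that ended when IGF-1 2, control 2 or control 3 was left out (highest adjusted p 0.058), and Fpr2 is given above. Bsg, basigin, a widely expressed membrane protein that can bind S100a9, rose from 1334 ± 207 to 2115 ± 75.6 (0.67 ± 0.11, adjusted p = 0.0048). Ager, the receptor RAGE, gave only 5.42 ± 1.58 and 9.04 ± 7.01 and was below the signal filter.

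Among inhibitors of granule proteases and metalloproteinases, 1 of 6 tested genes fell. Serpinb1a, which inhibits elastase, cathepsin G and proteinase 3, fell 2.49-fold, from 258 ± 60.4 to 95.7 ± 31.4 (-1.32 ± 0.21, adjusted p = 0.0038), the largest fall among the 38 genes above. Slpi, a secreted inhibitor of elastase, did not pass (0.16 ± 0.18, adjusted p = 0.60). Cst3, a cystatin and the brightest of the list, did not pass (0.20 ± 0.08, adjusted p = 0.14). Timp1, an inhibitor of Mmp9, lay below the filter at 34.7 ± 12.2 and 36.5 ± 4.64.

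Of 9 tested transcription factors of the granulocyte lineage, 2 fell, 1 rose and 6 did not pass. Cebpd fell from 174 ± 47.1 to 83.3 ± 12.2 (-0.92 ± 0.17, adjusted p = 0.0076). Klf6 fell by 0.48 ± 0.13, a call lost without control 2, control 3 or any 1 of the IGF-1 arrays (highest adjusted p 0.11). Cebpb, also active in other cell types, rose from 438 ± 8.21 to 683 ± 55.8 (0.62 ± 0.09, adjusted p = 0.0028). Spi1, which encodes PU.1, did not pass (0.28 ± 0.13, adjusted p = 0.19). Gfi1, at 30.04 ± 7.10 and 23.3 ± 7.07, lay below the filter, as did Cebpa.

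The members' neighbours in the genome were read as well. Beside Lcn2, 1110008P14Rik rose by 0.45 ± 0.12 (adjusted p = 0.033), while Ptges2 on the other side was below the filter. Beside Ltf, Ccrl2, a chemoattractant-binding receptor, did not pass (-0.23 ± 0.15, adjusted p = 0.34). Ptpn23 beside Ngp, Nme6 beside Camp, Lpo beside Mpo and Slc12a5 beside Mmp9 were all below the filter, and the remaining neighbours were not analysed here.

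Markers of the labelled cell type and of other cells were read beside the members, whose own summed signal was 25549 to 30522 in control arrays and 23612 to 26332 in IGF-1 arrays. Plasma cell markers were bright, with Jchain, the antibody joining chain, at 4443 ± 176 and 4311 ± 211 and Sdc1, the surface marker CD138, at 852 ± 129 and 938 ± 84.4. Of 9 tested, 2 fell (Tnfrsf17, the receptor BCMA, by 0.51 and Slamf7 by 0.62) and 7 did not pass, Prdm1, the plasma cell regulator Blimp-1, among them (-0.39 ± 0.15), and Cd27 was dim (8.76 and 9.13). Their summed signal, over 10 genes, was 17757 to 18887 in control arrays and 16959 to 17507 in IGF-1 arrays, without overlap. Of single probe sets tested, 18.7% had every IGF-1 array below every control array and 34.8% did not overlap in either direction. No such share was computed for sums of genes. Most of the sum came from Jchain, Ighm (5461 and 5453) and Xbp1 (4953 and 4317), and Xbp1 did not pass (-0.19 ± 0.09, adjusted p = 0.16 by limma). With arrays scaled to 9 or 18 hybridization control probe sets, neither fall passed: the adjusted p was 0.21 and 0.25 for Tnfrsf17 and 0.095 and 0.11 for Slamf7. Of the other list genes that fell outside the 38 above, Cd33, Klf6, Ccr2, Mpeg1 and Pf4 did not pass under either scaling, nor did Cd14 with 18 control probe sets (lowest adjusted p of these 0.053).

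Among monocyte and macrophage markers, 10 were tested, 5 of them falling and 1 rising. Csf1r, which binds M-CSF, fell by 1.02 ± 0.18 and kept its call without each array. Cx3cr1 fell by 0.89 ± 0.19, Mpeg1 by 0.71 ± 0.19 and Ccr2 by 0.70 ± 0.16, calls lost without control 2 and, for Mpeg1 and Ccr2, also without control 3 or either of IGF-1 1 and IGF-1 2 (highest adjusted p 0.11). Cd68 rose by 0.41 ± 0.09, a call lost without IGF-1 2 (highest adjusted p 0.052). Adgre1, the antigen F4/80, did not pass (-0.12 ± 0.14, adjusted p = 0.62). Mean signals in control and IGF-1 arrays were 671 and 317 for Csf1r, 935 and 1249 for Cd68 and 502 and 298 for Mpeg1. By contrast, C1qa (9.41 and 6.64) and Marco (6.77 and 7.42) were dim, and C1qc (47.6 and 37.8) and Mrc1 (53.2 and 32.7) lay below the filter. C1qb (106 and 60.4, adjusted p = 0.15 by limma) and Fcgr1 (77.9 and 64.3, adjusted p = 0.66) were brighter and did not pass. The summed signal of 14 genes was 6056 to 8233 in control arrays and 5102 to 7070 in IGF-1 arrays, of which Lyz2, shared with neutrophils, averaged 4256 and 3399.9. Their part in the members' differences was not tested.

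Other lineages gave mostly low signals, with brighter single markers. Mean signals in control and IGF-1 arrays were 944 and 982 for Cd79b of B cells and 190 and 135 for Alas2 of the erythroid list. They were 151 and 138 for Itga2b of the megakaryocyte list and 106 and 75.3 for Mcpt8 of basophils. Of the markers of eosinophils, basophils and mast cells 4 of 12 were tested, of T and NK cells 1 of 10, of B cells 1 of 8 and of stromal and endothelial cells 4 of 10, and in these lists 0 passed the limma test in either direction, with 1 (Mcpt8 of basophils, -0.40) at an unadjusted p under 0.05. Their summed signals were 468 to 491 in control arrays and 427 to 514 in IGF-1 arrays for eosinophils, basophils and mast cells. For T and NK cells they were 283 to 358 in control arrays and 209 to 309 in IGF-1 arrays. For B cells they were 1136 to 1261 in control arrays and 1236 to 1258 in IGF-1 arrays, most of it Cd79b. For stromal and endothelial cells they were 386 to 472 in control arrays and 429 to 552 in IGF-1 arrays. Single defining markers were dim: Prg2 and Epx of eosinophils averaged 49.2 and 40.04 in control arrays, Cd3e and Cd3d of T cells 9.60 and 19.8, and Col1a1 and Col1a2 of stroma 21.6 and 86.0. Ms4a1 and Cd79a of B cells averaged 54.2 and 41.0 there. Of 4 tested erythroid markers 1 rose (Slc4a1, 0.54 ± 0.12). Its adjusted p by limma reached up to 0.056 when control 2, IGF-1 1 or IGF-1 2 was left out. The globin genes Hba-a1 (22.2 and 38.6) and Hbb-b2 (19.4 and 32.4) lay below the filter. Only 11 of the 15 names of the erythroid list were found at probe sets with 1 symbol, so these signals do not stand for all globin RNA. The erythroid sum was 498 to 754 in control arrays and 605 to 698 in IGF-1 arrays. Of 5 tested megakaryocyte and platelet markers 1 fell (Pf4, -0.47 ± 0.12, a call kept only without IGF-1 3, highest adjusted p 0.091), and Ppbp (41.2 and 23.8) lay below the filter. The sum of that list was 439 to 575 in control arrays and 390.4 to 482 in IGF-1 arrays. No marker was listed at exactly 0, the lowest signal of any probe set being 0.0129.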

How the data were processed

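Affymetrix expression arrays measured RNA of 3 control and 3 IGF-1 samples. The authors deposited 1 intensity per probe set and array, a MAS5 signal on a linear scale, with MAS5 and GCOS named per the submitters' processing notes. For software versions, scaling target and detection calls, nothing is given in the sources used here. The middle of each array's signals (trimmed mean 150.05 to 150.06) was equal across arrays, with medians of 49.96 to 55.36. Of 22626 probe sets other than controls, 20380 had 1 gene symbol, 691 several and 1555 were not listed, and only those with 1 symbol were named.

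Differences were fitted on log2(signal + 15.6), the 25th percentile of all signals, by lmFit and trended eBayes of limma 3.58.1 (R 4.3.3). The 11313 probe sets with a mean signal over 53.6 were tested, with Benjamini-Hochberg adjustment and a threshold of 0.05, and genes were read at their brightest probe set. Named were all probe sets of the 10 genes; of each neutrophil list the genes past the threshold, or the smallest p, and the brightest; of each cell type list up to 4 genes past the threshold and the first 2 markers on the array; the 5 genes closest in profile; and genomic neighbours. Further genes (Tlr4, Ager, Slpi, Timp1, Spi1, Gfi1, Cebpa, Cyba, Jchain, Xbp1, Ighm, Cd27, Cd79b, C1qa, C1qb, C1qc, Mrc1, Fcgr1, Marco, Ccr2, Cd68, Mcpt8, Alas2, Itga2b) were added after their values were seen. The members, the lists and the tests were chosen with earlier results of these data known. The fit was tested on simulated data. Alternatives were other pseudocounts (1 and 50), no filter or one at the 70th percentile, no intensity trend, robust eBayes, a replicate block, quantile normalization, scaling to hybridization controls, the mean of a gene's probe sets, and leaving out each array. The number of arrays limits the precision. Promoter windows came from RefSeq tables. Protein sequences were not used here.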

Additional observations from a re-analysis of the deposited data

How the results depend on the processing

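No batch, scan date or culture is known for these arrays, so such effects cannot be told apart from IGF-1. Without the signal filter, 946 of all probe sets passed instead of 1709 (498 instead of 937 lower), and 1 member probe set passed instead of 2. Of the other granule, cytosol and surface genes 7 fell and 1 rose instead of 20 and 2. More probe sets then share the adjustment, and SEs rose as well (Ltf from 0.125 to 0.132, S100a9 from 0.099 to 0.118). Their parts in the lost calls were not tested. Without the intensity trend 1 of those genes rose. With quantile normalization 4 member probe sets passed. With arrays scaled to 9 hybridization control probe sets, 286 probe sets passed lower, 0 members passed, 10 other genes fell and 4 rose, and the members' median was -0.037. With all 18 of these probe sets, an alternative chosen after seeing the data, 2995 passed, 246 of them lower, 0 members passed, 7 other genes fell and 4 rose, and the members' median was 0.011. These 2 scalings turned the sign of S100a8 (0.10 and 0.15), S100a9 (0.041 and 0.090), Ngp (0.047 and 0.097) and Lcn2 (0.11 and 0.16), and the second that of Mpo (0.011). Elane turned to -0.068 without control 1 and to -0.0996 without IGF-1 3, and without each array in turn it ran from -0.0996 to 0.249. The cause was not tested.

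With 1 array left out, 897 to 1451 probe sets passed, 491 to 792 of them lower, 0 to 3 member probe sets passed, 7 to 25 other genes fell and 1 to 2 rose, and the members' median ran from -0.38 to -0.15. Same-numbered arrays deviated together with r of 0.12, -0.03 and 0.13, and different-numbered ones with r from -0.15 to 0.03. The labels do not pair the samples, and these values do not settle whether the numbers do. With a replicate block 1732 probe sets passed and 3 of the members, Prtn3 being added (adjusted p = 0.025 by limma), and 28 of the other genes fell. The pseudocounts, the filter at the 70th percentile and robust eBayes left 2 member probe sets passing.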
